A study of Mus musculus with 12 samples.

Results

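The genes described here are 9 matrix proteoglycans: decorin (Dcn), lumican (Lum), biglycan (Bgn), osteoglycin (Ogn), prolargin (Prelp), asporin (Aspn), fibromodulin (Fmod), versican (Vcan) and perlecan (Hspg2). They were taken by gene symbol, and all 9 were found among the 31053 genes of the deposited matrices. The data were single-nucleus RNA-seq of frozen lungs from C57BL/6J mice, with 12 libraries of 1 mouse each in 4 groups of 3. Mice of 7 weeks were given PBS or bleomycin, which damages lung cells and leads to fibrosis, into the trachea, and from day 5 they received NVP-BHG712, a small-molecule inhibitor of the receptor EphB4, or its vehicle by mouth for 5 days. Lungs were taken on day 14. The groups are called PBS + vehicle, PBS + NVP-BHG712, bleomycin + vehicle and bleomycin + NVP-BHG712. No animal carried an engineered allele, so the inhibitor was not directed to 1 cell type. Whether EphB4 was inhibited in a given cell type was not measured in these data.

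Small leucine-rich proteoglycans are secreted proteins built around a curved leucine-rich fold that binds collagen fibrils and sets their diameter and spacing. Class I holds decorin, biglycan and asporin, class II holds lumican, fibromodulin and prolargin, and osteoglycin is of class III. Decorin also binds TGF-beta, biglycan can signal through Toll-like receptors once released from the matrix, and asporin often lacks the glycosaminoglycan chains that the other class I members carry. Versican is a large chondroitin sulfate proteoglycan that binds hyaluronan in the loose provisional matrix of injured tissue. Perlecan is a large heparan sulfate proteoglycan of basement membranes.

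Of these genes, 6 lie in pairs or clusters of related genes. In the GRCm38 annotation (GENCODE M21) Dcn (chr10:97479609-97518143, plus strand) and Lum (chr10:97565128-97572703, plus strand) lie 46984 bases apart. Aspn (chr13:49544443-49567565, plus strand) and Ogn (chr13:49608046-49624501, plus strand) lie 40480 bases apart, with Omd (chr13:49582462-49592822, plus strand) between them. Prelp (chr1:133910304-133921414, minus strand) and Fmod (chr1:134037254-134048277, plus strand) lie 115839 bases apart. Bgn lies alone among the members at chrX:73483602-73495933 (plus strand), Vcan at chr13:89655312-89742509 (minus strand) and Hspg2 at chr4:137468769-137570630 (plus strand).

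The RefSeq promoter table (GRCm38.p6) matched 7 of the 9 genes. The 250 bases before the start are shown for Bgn, the only member called in the tests of all libraries with the filter on low counts, and for the neighbours Ogn and Aspn, whose levels lay in different fibroblast subclusters. Capitals mark matches to 3 motifs on either strand. The motifs are the TATA box, written TATAAA on the plus strand and TTTATA on the minus strand, the GC box, written GGGCGG or in reverse CCGCCC, and the CCAAT box, which reads ATTGG in reverse. In Ogn the capitals are a TATA box on each strand that overlap. The windows are chrX:73483351-73483600 for Bgn, chr13:49607765-49608014 for Ogn and chr13:49544193-49544442 for Aspn, all on the plus strand.
Bgn: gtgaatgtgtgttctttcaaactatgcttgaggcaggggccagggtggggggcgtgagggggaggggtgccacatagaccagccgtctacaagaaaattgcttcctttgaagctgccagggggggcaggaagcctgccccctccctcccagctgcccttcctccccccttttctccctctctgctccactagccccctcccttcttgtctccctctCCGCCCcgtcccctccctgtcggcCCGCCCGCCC
Ogn: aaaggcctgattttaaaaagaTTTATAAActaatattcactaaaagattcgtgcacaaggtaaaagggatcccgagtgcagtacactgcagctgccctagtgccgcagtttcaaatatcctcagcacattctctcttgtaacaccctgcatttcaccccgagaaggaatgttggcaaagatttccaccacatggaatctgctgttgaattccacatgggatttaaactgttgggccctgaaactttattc
Aspn: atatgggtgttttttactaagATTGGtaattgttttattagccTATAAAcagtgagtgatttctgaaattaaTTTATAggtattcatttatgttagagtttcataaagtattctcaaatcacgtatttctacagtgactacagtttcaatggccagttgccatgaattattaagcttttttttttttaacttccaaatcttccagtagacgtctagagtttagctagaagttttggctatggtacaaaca
The Bgn window held 64.4% G and C and 3 copies of CCGCCC, the last of them overlapping, with no TATAAA. The Ogn window held 42.0% G and C, and the Aspn window 30% with TATAAA or its complement in both windows, far from the start. Over 32851 promoter windows of the same length the median was 52.4% G and C, 12.4% of windows held TATAAA, 32.7% held GGGCGG and 33.9% held CCAAT, so each motif is common. One further motif searched, the AP-1 site TGACTCA, was in 4.46% of all windows and in none of the 7 member windows. A match is a description of letters and does not show that a factor binds there.

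After filters, 44611 nuclei were kept, of which 43350 fell in 18 marker-named cell classes and 1261 in none (47319 passed the limits on genes and mitochondrial UMIs, and 2708 of them were called doublets). Total UMIs per library ranged from 3556084 to 61947690. The bleomycin + vehicle libraries stood apart: their median mitochondrial share was 2.56%, 1.32% and 0.668%, against at most 0.0496% in the other 9, and their labels give batches 6, 6 and 7 where the others give runs 1 to 4. The batch and the bleomycin + vehicle group therefore cannot be told apart. All 3 bleomycin + NVP-BHG712 libraries were of run 4, and the PBS libraries were of runs 1 to 3. The bleomycin + NVP-BHG712 group and its run cannot be told apart either. Any 2 libraries shared at most 34 cell barcodes. The fibroblast-like class held 9904 nuclei, 339 to 2029 per library, and was split into 8 subclusters. From markers, subcluster 1 was called fibrotic-like (771 nuclei), 4 peribronchial-like (399) and 5 adventitial-like (368). Subcluster 0 (3739 nuclei) stayed unnamed under the naming rule. In it, 7 of 9 alveolar fibroblast markers were at least 2-fold above their level outside fibroblast-like nuclei. The count was also 7 in subclusters 1, 3 and 7, 6 in subclusters 2, 5 and 6, and 3 in subcluster 4. It therefore does not set subcluster 0 apart. Subcluster 3 (2536 nuclei) had a median of 1458 UMIs, with the mitochondrial genes mt-Nd4 and mt-Atp6 among its top genes. It made up 33.2%, 34.6% and 22.2% of fibroblast-like nuclei in bleomycin + vehicle and 19.6% to 33.3% elsewhere. Subcluster 7 (96 nuclei) was led by haemoglobin genes. Both stayed unnamed and are part of the fibroblast-like sums.

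Fibroblast-like nuclei, 22.2% of all nuclei, held most UMIs of 8 of the 9 genes. Their share was 89.6% of 10295 UMIs for Ogn, 79.4% of 1322 for Aspn, 71.7% of 1623 for Prelp, 68.8% of 2687 for Vcan, 68.7% of 5673 for Bgn and 61.0% of 2804 for Dcn. Lum and Fmod were nearly absent, with 78 and 47 UMIs in all 44611 nuclei, of which fibroblast-like nuclei held 66.7% and 51.1%. Hspg2 differed: 63.8% of its 8711 UMIs lay in alveolar type I-like nuclei, which were 14.8% of nuclei, and 18.7% in fibroblast-like nuclei. Levels below are CPM, the UMIs of a gene relative to all UMIs of a class summed in 1 library, scaled by TMM factors. They are compared between classes for 1 gene at a time, since nuclear counts of different genes are not scaled by length. The classes were themselves clustered from these counts, so differences between classes are given without a test.

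**Figure D1:**
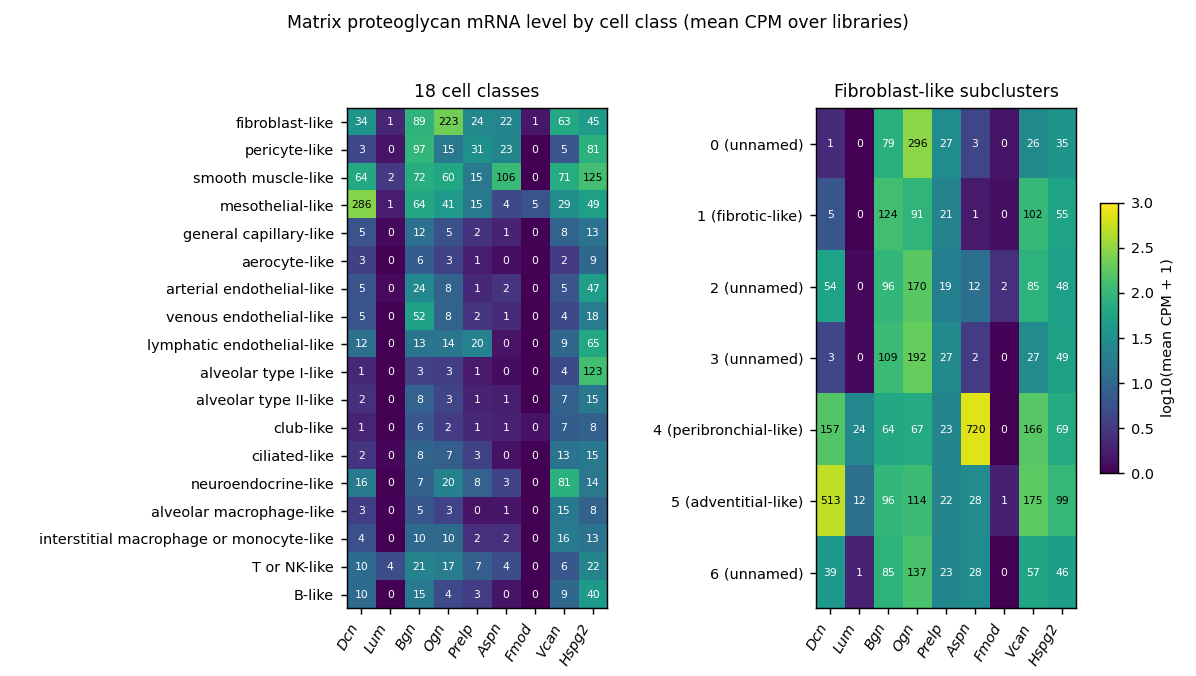
Mean level (CPM over libraries with at least 20 nuclei of the class, number in each cell, colour on a log10 scale) of the 9 genes in 18 cell classes (left) and in 7 fibroblast-like subclusters (right). Dcn stands out in mesothelial-like and adventitial-like nuclei, Aspn in peribronchial-like and Hspg2 in smooth muscle-like and alveolar type I-like nuclei.

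Among class I genes, Dcn was highest in mesothelial-like nuclei, at 285.8 ± 114.6 CPM (SD, n = 7 libraries), against 34.3 ± 16.9 in fibroblast-like nuclei as a whole (n = 12). Within fibroblast-like nuclei its level was far from even. The adventitial-like subcluster held 513 ± 281 CPM (n = 5), the peribronchial-like subcluster 157 ± 112 (n = 9), the fibrotic-like subcluster 5.37 and subcluster 0 only 1.30. The adventitial-like subcluster, 0.825% of all nuclei, thus held 883 of the 2804 Dcn UMIs, 31.5%, and mesothelial-like nuclei, 1.41% of nuclei, held 21.4%. Smooth muscle-like nuclei, at 64.4 ± 95.1 (n = 3), varied by more than their mean.

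Bgn was spread widely over mesenchymal classes. It was at 96.6 ± 40.4 CPM in pericyte-like nuclei (n = 7), 89.2 ± 26.7 in fibroblast-like (n = 12), 72.2 ± 13.2 in smooth muscle-like (n = 3), 64.5 ± 16.3 in mesothelial-like (n = 7) and 51.6 ± 25.4 in venous endothelial-like nuclei. These neighbours in the order differed by less than their SDs. Among fibroblast-like subclusters Bgn ran only from 64.5 CPM in the peribronchial-like to 123.5 ± 53.4 in the fibrotic-like subcluster.

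Aspn had the narrowest range among fibroblast-like nuclei. The peribronchial-like subcluster, 0.894% of nuclei, held 57.8% of Aspn UMIs at 720 ± 484 CPM (n = 9), and no other subcluster passed 28 CPM. By library, its Aspn level was 458 and 480 CPM under PBS + vehicle (replicates 1 and 3), 410 and 1616 under PBS + NVP-BHG712 (replicates 1 and 2), 848 and 915 under bleomycin + NVP-BHG712 (replicates 2 and 3), and 13.5, 517 and 1221 under bleomycin + vehicle. The lowest of these, in bleomycin + vehicle replicate 1, was a single UMI. Outside fibroblast-like nuclei, smooth muscle-like nuclei held 9.0% of Aspn UMIs at 105.7 ± 76.6 CPM, and pericyte-like nuclei followed at 23.1.

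Of class II and III genes, Ogn was the one most typical of fibroblast-like nuclei, at 223 ± 113 CPM (n = 12) against 60.2 in smooth muscle-like and 40.5 in mesothelial-like nuclei. Subcluster 0 alone held 60.7% of Ogn UMIs at 296 ± 116 CPM, and the level was lowest, at 66.8, in the peribronchial-like subcluster where Aspn was highest. Aspn and Ogn, which lie close together on chromosome 13, therefore peaked in different subclusters. Prelp was even, at 18.9 to 27.5 CPM over the fibroblast-like subclusters drawn, with 30.8 ± 19.8 in pericyte-like, 24.0 ± 10.3 in fibroblast-like and 20.1 in lymphatic endothelial-like nuclei. Lum averaged 1.09 ± 0.90 CPM in fibroblast-like nuclei, with 35.9% of its UMIs in the peribronchial-like subcluster at 24.2 CPM. Fmod reached at most 4.99 ± 7.44 CPM, in mesothelial-like nuclei. Lum and Fmod gave 52 and 24 fibroblast-like UMIs over 12 libraries, too few for a test.

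The large proteoglycans were less restricted. Vcan was at 63.2 ± 73.5 CPM in fibroblast-like nuclei, with 175 ± 36 in the adventitial-like, 166 ± 193 in the peribronchial-like and 102 ± 178 in the fibrotic-like subcluster, and 26.2 in subcluster 0. Neuroendocrine-like nuclei were at 81.3 ± 28.6 (n = 3) and smooth muscle-like at 71.4 ± 83.1 (n = 3, from 0 to 163 CPM on 30 UMIs), and interstitial macrophage or monocyte-like nuclei held 16.1. Hspg2 was at 125.4 ± 43.5 CPM in smooth muscle-like, 122.6 ± 35.8 in alveolar type I-like (n = 12), 80.8 in pericyte-like, 65.0 in lymphatic endothelial-like and 44.5 ± 10.4 in fibroblast-like nuclei. The first 2 of these differed by less than their SDs.

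Free RNA in a droplet can place UMIs in nuclei that do not make the transcript, so each level was set against the median of the single fibroblast markers in the same class. In neuroendocrine-like nuclei the markers were at a median of 9.32% of their fibroblast-like level and Vcan was at 155%. Hspg2 was at 259% in alveolar type I-like, 220% in pericyte-like and 152% in lymphatic endothelial-like nuclei. Dcn was at 713% in mesothelial-like, Aspn at 376% in smooth muscle-like, and Bgn at 87.5% in pericyte-like and 54.6% in venous endothelial-like nuclei. The marker median, with the highest single marker in brackets, was 1.35% (5.575%) in alveolar type I-like, 11.1% (85.7%) in pericyte-like and 5.26% (14.8%) in lymphatic endothelial-like nuclei. It was 17.0% (203%) in mesothelial-like, 35.0% (179%) in smooth muscle-like and 3.59% (31.15%) in venous endothelial-like nuclei. Bgn in pericyte-like nuclei was thus near the highest marker there. In alveolar macrophage-like nuclei the markers were at 1.25% and Hspg2 and Vcan at 15.3% and 11.8%.

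Across the 18 classes, the genes whose mean log level followed each member most closely were ranked by Pearson's r as a description, since the points share libraries and depth. Bgn was followed by Col5a1 (r = 0.94), which encodes a fibril-nucleating collagen chain, and Ogn by Unc5c and Fbln1 (both 0.94). Prelp was followed by Col1a1 (0.93), Aspn by Ednra (0.93), the endothelin receptor of contractile cells, and Hspg2 by Sparc (0.92), a collagen-binding matrix protein. Dcn was followed by AI838599 (0.93), and Vcan less closely by Osr1 (0.85). Between members, r was highest for Ogn and Prelp (0.83) and lowest for Vcan and Hspg2 (0.15). Lum and Fmod were too low for this measure.

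The first question of the design was which proteoglycan transcripts bleomycin and the inhibitor moved in fibroblast-like nuclei. None of the 7 members with enough counts passed edgeR's quasi-likelihood test in any contrast. The adjusted threshold was 0.05 over 10511 genes, of which 7.88% passed for bleomycin + NVP-BHG712 against bleomycin + vehicle and 5.34% for bleomycin + vehicle against PBS + vehicle. DESeq2 also called 0 members, and at an unadjusted p under 0.05 the counts were 3 and 1. Each library is a separate mouse, so these p-values rest on the spread between 3 mice a group.

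Vcan had the largest fitted changes. Its level was 22.2, 40.8 and 56.6 CPM under PBS + vehicle, 32.6, 37.9 and 45.5 under PBS + NVP-BHG712, 29.9, 36.9 and 47.4 under bleomycin + NVP-BHG712, and 293, 67.5 and 48.0 under bleomycin + vehicle. Replicate 1 of bleomycin + vehicle was far above the rest, and its replicates 2 and 3 lay near or within the range of the other groups. The fitted log2 change was 1.75 (SE 0.61, edgeR adjusted p = 0.138) for bleomycin + vehicle against PBS + vehicle and -1.75 (SE 0.62, adjusted p = 0.114) for bleomycin + NVP-BHG712 against bleomycin + vehicle. Without bleomycin + vehicle replicate 3 both contrasts passed, at 2.18 (adjusted p = 0.0350) and -2.18 (adjusted p = 0.0334), and without replicate 1 the sizes fell to 0.58 and -0.58. The change of the drug's effect with bleomycin was -1.74 (adjusted p = 0.387), and 0.504% of genes passed that test.

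Dcn and Bgn lay lower under bleomycin + NVP-BHG712 than under bleomycin + vehicle in their means but overlapped. Dcn was at 42.5, 37.9 and 72.3 CPM under bleomycin + vehicle and 10.95, 21.6 and 40.4 under bleomycin + NVP-BHG712, and the fitted difference was -1.07 (log2, SE 0.48, with an adjusted p of 0.201 by edgeR). Its PBS + vehicle libraries were at 34.8, 46.6 and 15.7 CPM. Bgn was at 146, 85.1 and 119 CPM under bleomycin + vehicle, 60.7, 90.5 and 60.01 under bleomycin + NVP-BHG712, and 102, 88.9 and 73.5 under PBS + vehicle. Its log2 change between the bleomycin groups was -0.71 (SE 0.27, edgeR adjusted p = 0.125). Neither gene's bleomycin + vehicle libraries were all above PBS + vehicle.

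Hspg2 was the least variable, at 37.4 to 50.0 CPM in 11 of 12 libraries and 75.0 in bleomycin + vehicle replicate 1. Its 3 PBS + NVP-BHG712 libraries (41.0 to 44.3) lay above the 3 PBS + vehicle libraries (37.4 to 40.2), as 2.33% of the tested genes did in that direction, and the 3 bleomycin + NVP-BHG712 libraries (44.8 to 49.9) above those of PBS + NVP-BHG712, as 4.07% did. The fitted changes were 0.13 and 0.15 on the log2 scale, and neither passed. Between the bleomycin groups, 1 of the 9 members did not overlap, Vcan, lower with the drug by the gap between 47.4 and 48.0 CPM. Over all tested genes that share was 15.5% in that direction.

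Ogn, Prelp and Aspn had small fitted changes: log2 0.40, 0.11 and -0.49 between the bleomycin groups and -0.45, -0.55 and 0.60 for bleomycin + vehicle against PBS + vehicle. In the comparison of PBS + NVP-BHG712 with PBS + vehicle, the 7 log2 changes ran from -0.11 to 0.50 with adjusted p of 1 for each, and for bleomycin + NVP-BHG712 against PBS + NVP-BHG712 from -0.52 to 0.15. Over all genes edgeR called 0 (0.0%) in both of these, with 39 and 336 genes at an unadjusted p under 0.05. The median over the 7 members was -0.49 between the bleomycin groups, beside -0.05 over all genes tested, and 0.38 for bleomycin + vehicle against PBS + vehicle, beside 0.00.

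**Figure D2:**
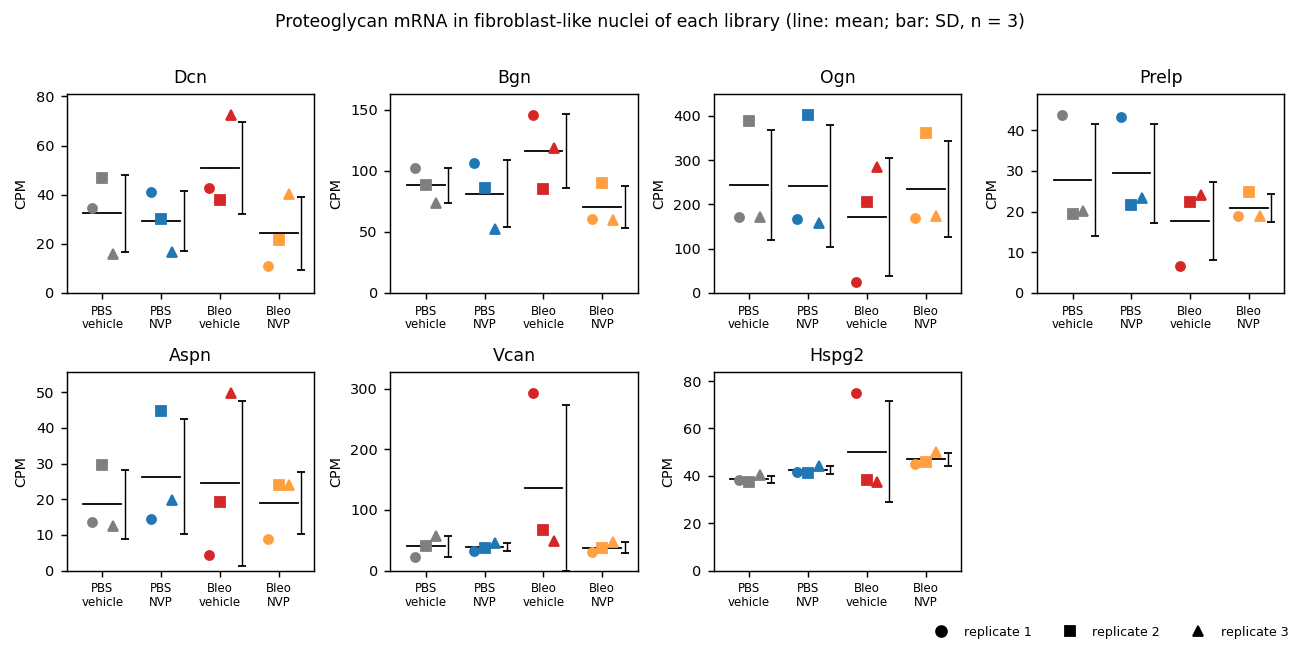
Level (CPM) of 7 proteoglycan genes in fibroblast-like nuclei, with 1 point per library, marker shape for the replicate number, a line for the group mean and a bar for the SD (n = 3). Bleomycin + vehicle replicate 1 is high for Vcan, at 293 CPM, and Hspg2, at 75.0 CPM, and low for Ogn, at 25.8 CPM, and Prelp, at 6.72 CPM.

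Bleomycin + vehicle replicate 1 also stood apart in its mix of fibroblast-like nuclei. Subcluster 0 made up 3.78% of them (19 nuclei) against 23.7% and 38.2% in its other 2 libraries and 37.8% to 48.0% elsewhere. The fibrotic-like subcluster made up 26.6%, 10.8% and 7.64% in bleomycin + vehicle and 3.6% to 7.13% in the other 9. Ogn, which was highest in subcluster 0, was at 25.8 CPM in that library and at 205 and 286 in the other 2. Some marker lists of other cells were also higher in the fibroblast-like sums of bleomycin + vehicle, and others were lower. The alveolar type II list summed to 318 to 1254 CPM there against 89 to 218 elsewhere, and the interstitial macrophage list to 26.7 to 97.4 against 2.43 to 9.57. The mesothelial list summed to 69.4 to 113.9 CPM there against 142.6 to 235.6 elsewhere, and the aerocyte list to 441 to 571 against 628 to 761. The part of this in the levels above was not tested.

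The Vcan difference was wider than in all fibroblast-like nuclei in the fibrotic-like subcluster, which held fewer nuclei, but not in subclusters 0 and 2. In the fibrotic-like subcluster, Vcan was at 600, 104 and 82.2 CPM under bleomycin + vehicle, at 3.95 and 31.3 in 2 PBS + vehicle libraries, at 42.8 to 64.7 in 3 PBS + NVP-BHG712 libraries and at 0 and 37.7 in 2 bleomycin + NVP-BHG712 libraries. All 3 bleomycin + vehicle libraries were above the other 7 with at least 20 nuclei, as were 4.79% of genes with at least 30 UMIs, and the changes did not pass: 4.37 (SE 1.32, edgeR adjusted p = 0.151) against PBS + vehicle, where 1.93% of genes passed, and -3.72 (adjusted p = 0.278) with the drug, where 0.987% did. In the peribronchial-like subcluster, Vcan was at 593, 345 and 89.2 CPM under bleomycin + vehicle against 59.7 and 68.5 under PBS + vehicle (log2 change 2.38, adjusted p = 0.475, with 0.168% of genes called). In subcluster 2, which stayed unnamed, it was at 153, 115 and 85.4 against 42.2, 65.5 and 177, with overlap and a log2 change of 0.38 (edgeR adjusted p = 0.933). In subcluster 0, where bleomycin + vehicle replicate 1 had too few nuclei to enter, the change was 0.51 (adjusted p = 0.829). No member passed in any subcluster. The filter on low counts can keep a gene through 1 group alone, and Vcan was high in bleomycin + vehicle in the fibrotic-like and peribronchial-like sums. Whether it entered these tests through that group was not examined, so its changes there are a description.

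**Figure D3:**
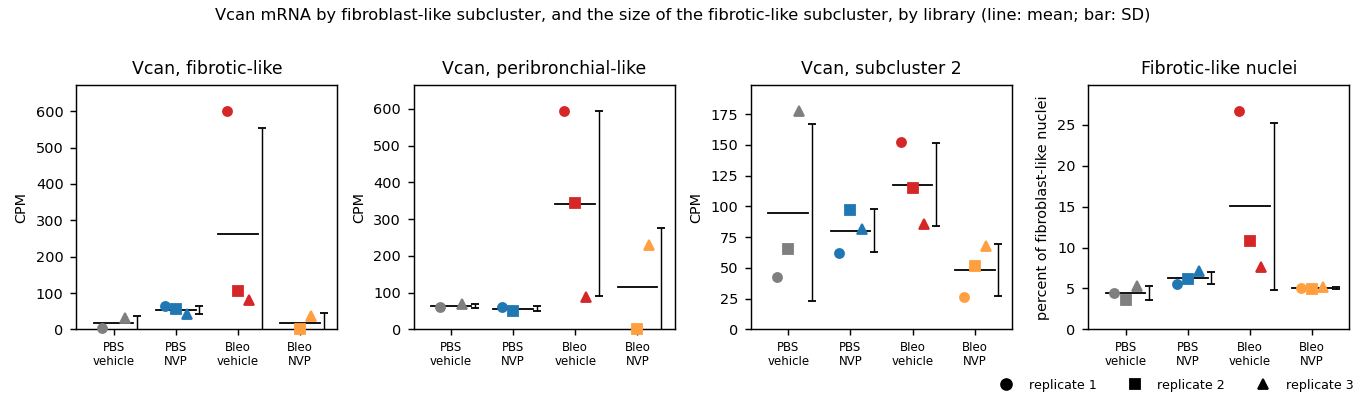
Vcan level (CPM) by library in 3 fibroblast-like subclusters and, on the right, the fibrotic-like share of fibroblast-like nuclei in percent. Lines are means and bars SDs, and libraries with fewer than 20 nuclei are left out. The bleomycin + vehicle libraries reach 600 CPM in the fibrotic-like subcluster and 26.6% of nuclei.

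Summed over all nuclei, where fewer cells of a type and less RNA per cell cannot be told apart, 0 of 7 members passed edgeR's test. The background was 5.51% of 14442 genes between the bleomycin groups and 2.44% for bleomycin + vehicle against PBS + vehicle, and 3 and 2 members had an unadjusted p under 0.05. Dcn was at 19.3 to 25.3 CPM in the bleomycin + vehicle libraries and at 6.80 to 16.5 in the other 9, and Bgn at 36.4 to 46.1 against 17.8 to 34.4. These 2 of 9 members had all 3 bleomycin + vehicle libraries above all others, as did 5.23% of 18172 genes with at least 30 UMIs. Their log2 changes with the drug after bleomycin were -1.08 (SE 0.33, edgeR adjusted p = 0.0723) for Dcn and -0.74 (adjusted p = 0.0968) for Bgn. In fibroblast-like nuclei no member had this pattern, against 8.13% of genes.

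Outside fibroblast-like nuclei, 3 of 32 tests of a member in a class and contrast passed, all of them of Bgn, in general capillary-like and alveolar type I-like nuclei. The filter on low counts keeps a gene that reaches its limit in the libraries of 1 group alone. By its levels Bgn entered these tests through bleomycin + vehicle, the group where it was high, so the calls are a description. The other 9 libraries reached at most 11.55 CPM in general capillary-like and 4.27 in alveolar type I-like nuclei. In general capillary-like nuclei Bgn UMIs were 11, 1 and 0 under PBS + vehicle, 35, 3 and 0 under PBS + NVP-BHG712, 0, 2 and 2 under bleomycin + NVP-BHG712, and 5, 31 and 98 under bleomycin + vehicle. As CPM these were 5.53, 1.72 and 0, then 11.5, 6.30 and 0, then 0, 4.27 and 7.13, and 38.6, 33.8 and 29.3. All 3 bleomycin + vehicle libraries were above the other 9, as were 4.9% of genes with at least 30 UMIs. The log2 change was 3.06 (SE 0.67, edgeR adjusted p = 0.0118, with 4.06% of 6200 genes called) against PBS + vehicle and -2.89 (SE 0.81, adjusted p = 0.0462, with 4.77% called) with the drug after bleomycin. Leaving out 1 library ended the second call in 8 of 12 cases.

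In alveolar type I-like nuclei Bgn was at 4.27, 1.31 and 2.72 CPM under PBS + vehicle, 0, 0.620 and 0.560 under bleomycin + NVP-BHG712 and 6.17, 5.53 and 7.65 under bleomycin + vehicle. The drug contrast was -3.82 (SE 0.71, edgeR adjusted p = 0.00992, with 6.12% of 9383 genes called) and rested on 2 UMIs in the 3 bleomycin + NVP-BHG712 libraries. Against PBS + vehicle the change was 1.09 (adjusted p = 0.212, with 4.3% called). The change of the drug's effect with bleomycin passed in neither class (-3.96, adjusted p = 0.117, with 0.581% of genes called, and -3.21, adjusted p = 0.184, with 0.117% called).

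These Bgn differences were smaller in a stricter set of nuclei, set by 2 limits whose parts were not told apart. When the nuclei were limited to those with 500 UMIs or more and a mitochondrial share of 1% or less, general capillary-like nuclei of bleomycin + vehicle fell from 105, 569 and 1587 to 16, 163 and 694. Their Bgn UMIs fell from 5, 31 and 98 to 0, 4 and 33. On the scale of the UMI total, Bgn in these nuclei was at 0, 11.4 and 17.6 CPM, against 0 to 12.2 in the other 9 libraries, and the groups overlapped. In alveolar type I-like nuclei the bleomycin + vehicle levels became 0.987, 4.91 and 6.87 CPM against 0 to 4.73. Bgn was then too low for the test in both classes. The same held more widely: with all nuclei, bleomycin + vehicle lay above the other 9 libraries in 7 of 8 non-fibroblast classes with 12 libraries, and with the stricter nuclei in 2 of 8, alveolar macrophage-like (6.86 to 15.8 against 0 to 5.23 CPM) and alveolar type II-like (13.5 to 22.2 against 0 to 10.3).

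With all nuclei, the Bgn ranges of bleomycin + vehicle against the other 9 libraries were 10.8 to 24.9 and 0 to 8.48 CPM in aerocyte-like nuclei (2.3% of genes had this order), 11.7 to 19.7 and 0 to 5.15 in alveolar macrophage-like (6.86%), 14.6 to 29.8 and 0 to 9.73 in alveolar type II-like (4.16%), 14.9 to 33.7 and 0 to 12.1 in ciliated-like (3.29%), and 12.7 to 26.2 and 0 to 5.99 in club-like nuclei (2.82%). In alveolar type I-like nuclei 6.55% of genes had this order. In venous endothelial-like nuclei, which expressed Bgn in every group, they overlapped at 40.4 to 73.5 and 13.9 to 98.2, where 2.05% of genes had this order. The 11 fibroblast markers summed to 3.72% to 13.5% of their fibroblast-like level in general capillary-like nuclei of bleomycin + vehicle and to 1.22% to 2.87% in the others, while Bgn was at 23.3% to 37.6% and 0% to 12.3% of its own. In alveolar type I-like nuclei the markers were at 1.5% to 2.76% against 0.513% to 2.55%, and Bgn at 4.08% to 6.41% against 0% to 4.22%. The fibroblast-like level of the markers was itself lower in bleomycin + vehicle, at 3840 to 5626 CPM against 5846 to 7081. As CPM, the markers in general capillary-like nuclei were at 209 to 546 against 80.3 to 190. In alveolar type I-like nuclei they were at 84.4 to 106 CPM against 33.7 to 151, with overlap. The part of free RNA in the Bgn levels was not tested.

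**Figure D4:**
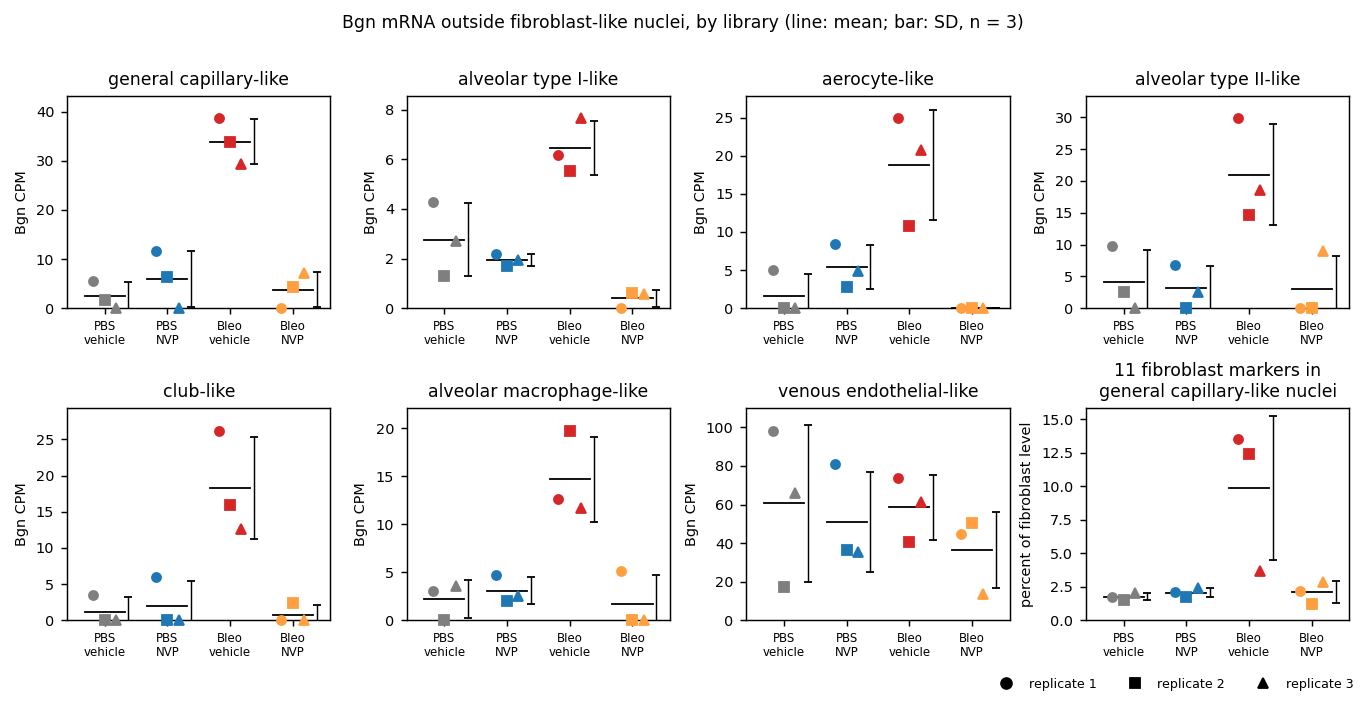
Bgn level (CPM) by library in 7 cell classes, and, in the last panel, the summed level of 11 fibroblast markers in general capillary-like nuclei as a percent of their level in fibroblast-like nuclei. Lines are means and bars SDs (n = 3). In every class but venous endothelial-like, the 3 bleomycin + vehicle libraries lie above the other 9, and their fibroblast markers also lie higher in the last panel.

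Hspg2 in alveolar type I-like nuclei, where most of its UMIs lay, was at 187, 104 and 106 CPM under PBS + vehicle, 201, 134 and 122 under PBS + NVP-BHG712, 98.8, 97.5 and 88.9 under bleomycin + vehicle and 109, 102 and 121 under bleomycin + NVP-BHG712. All 3 bleomycin + vehicle libraries were below the lowest PBS library, as 5.72% of genes with at least 30 UMIs were. The log2 change was -0.50 (SE 0.23, edgeR adjusted p = 0.261, with 4.3% of genes called) and did not pass, and between the bleomycin groups it was 0.22 (adjusted p = 0.651).

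Ogn and Prelp differed between libraries of 1 group along the replicate number of the label. Ogn in fibroblast-like nuclei was at 388, 401 and 361 CPM in replicate 2 of PBS + vehicle, PBS + NVP-BHG712 and bleomycin + NVP-BHG712, and at 158 to 174 in replicates 1 and 3 of these groups. Within subcluster 0 alone the same libraries were at 459, 461 and 413 against 180 to 219, and bleomycin + vehicle replicates 2 and 3 at 335 and 390. Prelp was at 43.6 and 43.3 CPM in replicate 1 of the 2 PBS groups, both of run 1, and at 18.9 to 24.9 in the rest of those 9 libraries. The runs of the 3 high Ogn libraries were 2, 2 and 4, and PBS + vehicle replicate 3, also of run 2, was at 171. In these 3 groups the SD of Ogn was 109 to 138 CPM, and replicate 2 was the highest in each, while bleomycin + vehicle replicate 2, at 205, was not.

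**Figure D5:**
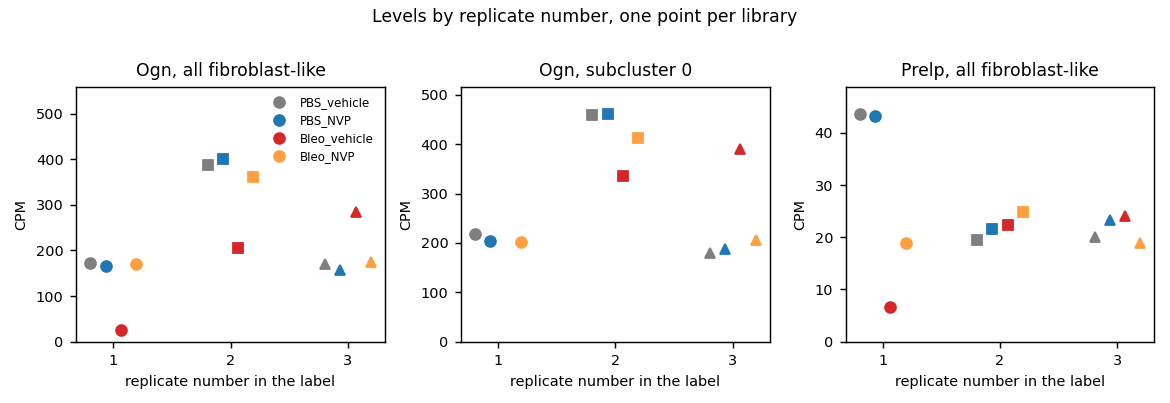
Ogn level (CPM) in fibroblast-like nuclei and in subcluster 0, and Prelp level in fibroblast-like nuclei, by the replicate number in the label, with 1 point per library. Ogn is high in replicate 2 of 3 groups, at 361 to 401 CPM, and Prelp in replicate 1 of the PBS groups, at 43.3 and 43.6 CPM.

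The enzymes and partners of these core proteins were taken as 7 lists of 108 genes, of which 74 were tested in fibroblast-like nuclei. With the drug after bleomycin 3 were higher and 7 lower, and for bleomycin + vehicle against PBS + vehicle 7 were higher and 1 lower, beside backgrounds of 7.88% and 5.34%. In the other contrasts edgeR called 0. No other small leucine-rich, hyaluronan-binding or basement membrane gene was called: 0 of 3, 0 of 4 and 0 of 8 tested. The calls lay among cell-surface heparan sulfate proteoglycans (2 of 8 lower with the drug), sulfation and epimerisation enzymes (2 of 23 higher and 2 lower), chain synthesis (1 of 16 higher) and core-protein proteases (3 of 12 lower).

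Sulf1, the extracellular sulfatase that trims heparan sulfate, was at 75.8, 86.0 and 55.3 CPM under PBS + vehicle, 662, 246 and 183 under bleomycin + vehicle and 49.8, 73.8 and 45.5 under bleomycin + NVP-BHG712. Its log2 changes were 2.31 and -2.66 (SE 0.42 and 0.43, edgeR adjusted p = 0.0112 and 0.00580), and the bleomycin + vehicle libraries lay above all of these. Chst11, which sulfates chondroitin chains such as those of versican, was at 14.02, 10.2 and 9.43, then 471, 96.5 and 34.5, then 3.98, 10.54 and 5.69 CPM, with log2 changes of 4.05 and -4.73 (adjusted p = 0.0236 and 0.0165). Both genes were highest in bleomycin + vehicle replicate 1, as Vcan was. Chst11 was also among the 10 top genes of the fibrotic-like subcluster. That subcluster made up 26.6%, 10.8% and 7.64% of fibroblast-like nuclei in the same libraries, in the order of their Chst11 levels. The part of these shares in the Chst11 change was not tested. Results of the alternative settings were kept for the members only, not for the enzymes and partners. Hs6st3, a heparan sulfate 6-O-sulfotransferase, went the other way, at 1378, 2331 and 2566, then 676, 1090 and 1267, then 2505, 2161 and 2533 CPM, with log2 changes of -1.04 and 1.24 (adjusted p = 0.0496 and 0.0206).

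The glypican Gpc4 differed by log2 1.53 in bleomycin + vehicle against PBS + vehicle and by -1.38 in bleomycin + NVP-BHG712 against bleomycin + vehicle. In the same contrasts the proteases Adamts15, of the family that cleaves versican, and Mmp2, a gelatinase, differed by 0.85 and 0.91 and by -1.17 and -1.02. Bmp1, the protease that matures the biglycan precursor, was lower by -1.31 with the drug. Glce and Csgalnact2, enzymes of chain epimerisation and elongation, were higher by 1.02 and 0.93. These edgeR calls were at adjusted p of 0.0105 to 0.0480. The contrasts share the bleomycin + vehicle libraries, so a gene high there appears in both. That group cannot be told apart from its batch, and the stricter nuclei were not examined for these genes.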

How the data were processed

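Nuclei were sorted from frozen mouse lungs, and 1 single-nucleus library was made per mouse, 3 per group. The authors counted UMIs per gene and nucleus with Cell Ranger (7.2.0 in the deposited file headers; the submitters' processing notes name 7.0, Seurat 4.4.1 and mm10), and the deposited values are these raw counts, with no normalization. The sources used here differ on the drug dose, so none is given.

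Nuclei with 200 to 6000 genes and at most 5% mitochondrial UMIs were kept, and doublets were called per library and left out. Nuclei were clustered with scanpy 1.11.5 (Python 3.11.15, python-igraph 0.11.9; 2000 variable genes, 30 components, Harmony correction, Leiden resolution 1) and a cluster was named only where at least 3 markers were 2-fold or more above the other nuclei. UMIs were summed per library and class, with at least 20 nuclei per library and 2 libraries per group. The sums were tested with edgeR 4.0.16 (R 4.3.3; filterByExpr, TMM, quasi-likelihood test, 1 mean per group, Benjamini-Hochberg over all genes tested, called at 0.05). DESeq2 1.42.0 was an alternative, with other normalization, no filter, stricter nuclei, other clusterings, a replicate block and each library left out. Scripts were tested on simulated data. The genes named were the members, the called pathway genes with a mean of at least 10 CPM (at most 8 rises and 8 falls in each bleomycin + vehicle contrast), and up to 3 genes most correlated with each member over the cell classes on log2(CPM + 1), predicted genes left out.

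Members and lists were chosen with earlier results of these data known. Fold changes are on the log2 scale. Replicate numbers were checked as pairs by the correlation of deviations from group means over 10511 genes. It was 0.66, 0.39 and 0.44 between the PBS groups, whose replicates 1 share run 1 and replicates 2 share run 2. For those, pairing and run cannot be told apart. The reported fit has no block, and edgeR called 0 genes between the PBS groups with and without it. Between bleomycin + NVP-BHG712 and the PBS groups the correlation was -0.06 and -0.08 for replicate 1 and 0.17 to 0.30 for replicates 2 and 3. The own number was highest in 14 of 18 comparisons among the groups without bleomycin + vehicle, and in 10 of 18 with it.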

Additional observations from a re-analysis of the deposited data

How the results depend on the processing

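In fibroblast-like nuclei no member was called with TMM or RLE scaling, DESeq2, stricter nuclei, the other clusterings, only the libraries compared, or the replicate block. With no filter on low counts, 3 members (Dcn, Bgn and Vcan) were called between the bleomycin groups, and 1 (Vcan) for bleomycin + vehicle against PBS + vehicle and for the change of the drug's effect. That setting also called 1640 genes in all against 828, 1452 against 561 and 786 against 53. Leaving out 1 library gave 0 to 1 members in each of the first 2 contrasts (1 without bleomycin + vehicle replicate 3). In subclusters 0 were called, with 1 when there was no filter and 0 to 1 with a library left out. In all nuclei leaving out a library gave 0 to 1 (Dcn without bleomycin + NVP-BHG712 replicate 3, adjusted p = 0.0379, and Vcan without bleomycin + vehicle replicate 3, adjusted p = 0.03995). In other classes 3 calls became 11 with no filter, 0 with the stricter nuclei, in which Bgn was too low for the test, and 1 to 5 with a library left out.

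Bgn in general capillary-like nuclei lost its drug contrast in 9 of 17 alternatives (adjusted p 0.0126 to 0.165; 0.0552 with doublets kept) and its bleomycin contrast in 2 of 17 (0.0636 without bleomycin + vehicle replicate 2, 0.0588 without PBS + vehicle replicate 2). In alveolar type I-like nuclei it lost the call in 1 of 17 (0.0615 without bleomycin + NVP-BHG712 replicate 3). The cause was not tested.

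Directions turned for members near 0. Between the bleomycin groups, Hspg2 was at 0.0089 with no filter, 0.15 with stricter nuclei and 0.0022 with the replicate block. With 1 library left out, it ran from -0.20 to 0.31, Ogn from -0.053 to 0.95, Prelp from -0.14 to 0.35 and Aspn from -0.83 to 0.52. For bleomycin + vehicle against PBS + vehicle, with 1 library left out, Ogn ran from -0.99 to 0.044, Aspn from -0.41 to 1.06 and Hspg2 from -0.024 to 0.49. The turns came with bleomycin + vehicle replicate 1 (Ogn, Prelp and Hspg2) or 3 (Aspn), bleomycin + NVP-BHG712 replicate 2 (Ogn and Prelp) or 1 (Hspg2), PBS + vehicle replicate 1 (Hspg2) or 2 (Ogn) left out.

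The replicate block changed no member call, though it called 1450 genes in all against 828. Between the bleomycin groups the stricter nuclei called 418 genes, the libraries compared alone 465, DESeq2 1124, and leaving out a library 224 to 1375. Against bleomycin + vehicle the replicate numbers are shared only as numbers (correlations -0.04 to 0.09). The highest class or subcluster of some members depended on the clustering. Vcan was highest in the adventitial-like subcluster in the main setting (174.9 CPM). It was highest in the fibrotic-like at Leiden resolution 2 (318.6) and without Harmony (129.9), and in the peribronchial-like with doublets kept (160.6). Dcn moved from adventitial-like to mesothelial-like nuclei with doublets kept (244.5) and without Harmony (305.6). Bgn, Ogn and Aspn kept theirs. Lum and Fmod were too shallow to compare at all.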
